A study of Mus musculus with 12 samples.

Results

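Neuronal immediate early genes were followed in brains taken from 12 mice 14 d post-stroke. The set held 10 genes, *Fos*, *Fosb*, *Junb*, *Egr1*, *Egr2*, *Arc*, *Npas4*, *Nr4a1*, *Ier2* and *Dusp1*, found by matching the Ensembl identifiers of the count table to their symbols. These were 10 of the 49315 genes listed, and all 10 were among the 20290 genes with enough counts to test. Bulk RNA-sequencing compared 6 mice transplanted with WT BM cells and 6 transplanted with *Tet2*-KO BM cells, to ask how clonal hematopoiesis carried by *Tet2*-deficient leukocytes relates to the brain in the weeks after ischemia.

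All recipients were male CD45.1 Pep Boy mice, irradiated with the head shielded at 8 to 12 weeks of age. The WT group received 10% CD45.2 *Tet2*+/+ BM cells and the *Tet2*-KO group 10% CD45.2 *Tet2*-/- BM cells, and in both groups the other 90% of the marrow was CD45.1 *Tet2*+/+. Every mouse, WT recipients included, then had a 30 min occlusion of the right middle cerebral artery 8 to 10 weeks after transplantation, so no uninjured brain is part of the comparison. Neurons carry intact *Tet2* in both groups, and only a minor part of the donor marrow lacks the gene. *Tet2* itself was at 126 to 147 CPM (read counts scaled to the effective library total) in WT mice and 117 to 137 CPM in *Tet2*-KO mice, which cannot check the group labels because the brain and most of the marrow keep the gene. The treatment entry of the labels names control HSC for all 12 samples, and the groups were therefore taken from the sample titles.

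Immediate early genes are transcribed within minutes of a stimulus from factors already present in the cell, without new protein synthesis. In neurons, calcium entry and the MAP kinase cascade activate CREB, which binds cAMP response elements (CRE), and SRF with its ELK partners, which bind CArG boxes. The first proteins made are mostly transcription factors, followed by effectors such as ARC at the synapse and phosphatases such as DUSP1 that shut off the kinases. Their transcripts are short-lived, so that a level in whole tissue reads out a brief window before collection.

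RefSeq promoters of the same build as the files, mm10 (GRCm38.p6), were available here for 7 of the 10 genes (*Fos*, *Fosb*, *Junb*, *Egr2*, *Npas4*, *Nr4a1* and *Dusp1*), with 5 alternative starts for *Egr2* and 11 promoters in all. The 250 bases before each start were searched on both strands for the CRE core TGACG, the full CRE TGACGTCA, the AP-1 site TGANTCA, the EGR site GCGNGGGCG, the CArG box and the TATA sequence TATAAA. The core overlaps the full CRE, which contains it. At least 1 core was found in 7 of 7 genes and in 9 of the 11 promoters, against 17.8% of all 32851 promoters searched in the same way and 19.8% of all genes. The *Egr2* windows beginning at chr10:67537619, 67537620 and 67537680 overlap in most of their bases and hold the same 2 cores. The count of promoters is therefore not one of separate sequences. The promoters of 4 genes with several cores are shown because the core is the sequence feature that the 7 genes share. Cores on either strand are in capitals.
Fos, chr12:85473640-85473889, plus strand: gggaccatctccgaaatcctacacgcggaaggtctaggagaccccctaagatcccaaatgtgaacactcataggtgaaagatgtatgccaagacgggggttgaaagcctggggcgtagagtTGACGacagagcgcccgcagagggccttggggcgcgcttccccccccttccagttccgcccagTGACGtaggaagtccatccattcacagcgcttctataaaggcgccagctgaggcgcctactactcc
Npas4, chr19:4989972-4990221, minus strand: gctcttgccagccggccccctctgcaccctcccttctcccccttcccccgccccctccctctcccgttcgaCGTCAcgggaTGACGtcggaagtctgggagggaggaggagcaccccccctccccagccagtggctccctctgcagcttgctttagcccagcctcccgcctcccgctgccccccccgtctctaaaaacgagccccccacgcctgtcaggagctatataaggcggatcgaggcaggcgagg
Nr4a1, chr15:101266596-101266845, plus strand: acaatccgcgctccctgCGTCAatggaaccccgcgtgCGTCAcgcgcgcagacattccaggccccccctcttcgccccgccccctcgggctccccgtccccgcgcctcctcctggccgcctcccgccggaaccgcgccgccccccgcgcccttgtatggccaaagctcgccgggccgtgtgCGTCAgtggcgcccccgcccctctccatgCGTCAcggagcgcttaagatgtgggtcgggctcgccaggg
Dusp1, chr17:26508473-26508722, minus strand: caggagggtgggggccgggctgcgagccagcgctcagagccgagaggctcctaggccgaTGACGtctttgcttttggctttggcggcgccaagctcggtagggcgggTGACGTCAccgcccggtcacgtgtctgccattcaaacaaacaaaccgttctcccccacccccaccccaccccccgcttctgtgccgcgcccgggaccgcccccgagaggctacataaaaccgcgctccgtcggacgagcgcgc

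In the promoter of *Fos*, the cores began 129 and 66 bases before the start. *Nr4a1* had 4 of them, the nearest 40 bases from the start, *Npas4* had 2 within a short stretch beginning 179 and 169 bases upstream, and *Dusp1* had 3. The full palindrome stood in the *Dusp1* promoter alone among the 7 genes, against 1.77% of all genes. The 2 overlapping cores there start 143 and 140 bases upstream. EGR sites stood in 2 genes, *Fosb* and *Nr4a1* (5.33% of all genes), TATAAA in 1, *Fos* (14.3%), and AP-1 sites in none (7.82%). CArG boxes stood in 1 gene, *Egr2* (1.62% of all genes). They lay in 4 of the 11 promoters, all of them alternative starts of *Egr2*, against 1.47% of all promoters. The overlapping *Egr2* windows named above hold the same box, so these are not 4 separate boxes. These are matches of letters in a short window, not measured binding, and a site farther away would not be seen.

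Library totals were 12000261 to 21049763 counts, and the 10 members took 0.0289% to 0.0852% of them. Across all tested genes, 5 passed an adjusted p of 0.05 in edgeR (0.0246%), all lower in *Tet2*-KO mice. This count was unstable: it was 2257 without *Tet2*-KO 5 (759 higher, 1498 lower), 898 with DESeq2 (195 higher, 703 lower) and 2013 with limma-voom (591 higher, 1422 lower). Summed levels of 12 neuron marker genes, all tested and none at 0 in any mouse, were 4841 to 6676 CPM in WT mice and 6245 to 8120 CPM in *Tet2*-KO mice, so the labelled tissue, brain, was matched by its markers. Mitochondrially encoded genes took 4.74% of counts in *Tet2*-KO 6 and 2.87% to 3.59% in the other 11 libraries. The replicate samples are separate mice by their labels. Within each group, the libraries of each pair differed by 2.00 to 27.5 times the counting noise (chi-square per degree of freedom). No library was therefore counted as a copy of another in its group, and pairs across the groups were not compared.

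None of the 10 genes passed the test between the groups. The count past an adjusted p of 0.05 was 0 of 10 (edgeR quasi-likelihood test, Benjamini-Hochberg over 20290 genes), and the count at an unadjusted p under 0.05 was also 0 of 10, where 23.1% of all tested genes were under that value. DESeq2 and limma-voom likewise called 0 members at an adjusted p of 0.05, where they called 4.25% and 9.92% of all genes they tested. No member had groups without overlap in CPM, against 1.09% of all genes. The log2 fold changes of *Tet2*-KO over WT were below 0 in 9 of 10 members, against 47.7% of all genes, with a median of -0.21 for the members and 0.010 for all genes. Because the members went up and down together from mouse to mouse, these signs are not 10 separate observations. In bulk tissue, fewer cells of a type and less RNA per cell cannot be told apart. The values of each mouse are given by functional class.

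**Figure D1:**
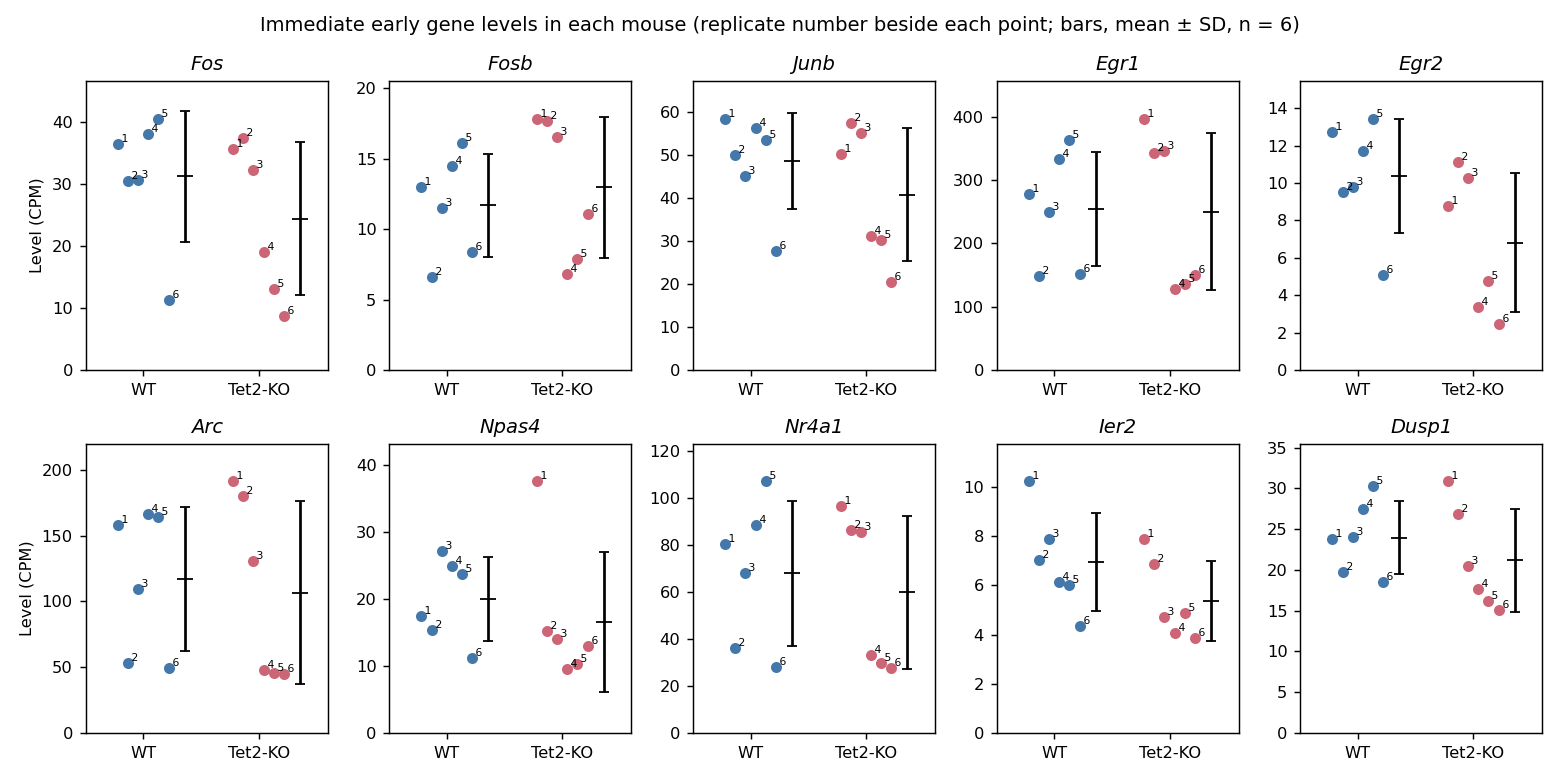
Level of each immediate early gene (CPM, linear axis from 0) in each mouse, with WT in blue and *Tet2*-KO in red, the replicate number beside each point and bars for mean ± SD (n = 6 per group). In *Arc* and *Nr4a1* the same 5 mice, WT 2, WT 6 and *Tet2*-KO 4, 5 and 6, lie below a gap and both groups reach across it.

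*Fos*, *Fosb* and *Junb* encode subunits of AP-1, a dimeric transcription factor that turns a brief stimulus into a later gene programme. *Fos* (ENSMUSG00000021250, plus strand, chr12:85473890-85477273) had a lowest, median and highest level of 11.3, 33.6 and 40.6 CPM in WT mice and 8.77, 25.7 and 37.5 CPM in *Tet2*-KO mice. A single WT mouse, WT 6, sat at the low level, whereas *Tet2*-KO 4, 5 and 6 had 19.1, 13.1 and 8.77 CPM. No mouse lay between 19.1 and 30.6 CPM. The log2 fold change of *Fos* was -0.35 (SE 0.39, 95% interval -1.22 to 0.52, edgeR adjusted p = 0.639), so that a *Tet2*-KO mean between 0.43 and 1.43 times the WT mean is within the interval.

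*Junb* (ENSMUSG00000052837, minus strand, chr8:84974484-84978718), whose product opposes JUN in many settings, had the same mice at the bottom. Its WT levels were 27.8, 51.7 and 58.4 CPM (lowest, median, highest) and its *Tet2*-KO levels 20.4, 40.6 and 57.3 CPM, with a gap between 31.1 and 45.2 CPM and WT 6 and *Tet2*-KO 4, 5 and 6 below it. The difference was -0.25 on the log2 scale (SE 0.27, 95% interval -0.84 to 0.34, edgeR adjusted p = 0.624). *Junb* overlaps *Prdx2* on the opposite strand, and since the strand setting of the counting is not given in the sources used here, reads of the 2 genes may not be separated.

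*Fosb* (ENSMUSG00000003545, minus strand, chr7:19302696-19310051), known for a stable splice form that builds up with repeated stimulation, was the 1 member with a positive difference. Levels were 6.60, 12.3 and 16.2 CPM in WT mice and 6.84, 13.8 and 17.8 CPM in *Tet2*-KO mice. Its lowest mouse was WT 2 and not WT 6, and *Tet2*-KO 6, the lowest *Tet2*-KO mouse for *Fos* and *Junb*, had an intermediate *Fosb* level of 11.1 CPM. The log2 fold change was 0.16 (SE 0.29, 95% interval -0.48 to 0.79, edgeR adjusted p = 0.796). The counts used here are per gene, and splice forms were not analysed.

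*Egr1* and *Egr2* encode zinc finger factors of the EGR family, induced by synaptic activity and growth factors, and EGR2 is also a master factor of peripheral myelination. *Egr1* (ENSMUSG00000038418, plus strand, chr18:34859823-34864984) had the highest counts of the set, 1738 to 7060 per library. It had 148, 263 and 363 CPM in WT mice and 129, 247 and 397 CPM in *Tet2*-KO mice (lowest, median, highest). The 5 lowest mice, WT 2, WT 6 and *Tet2*-KO 4, 5 and 6, reached at most 153 CPM and the other 7 began at 249 CPM, and both groups had mice on either side. Means were 254 ± 89.9 CPM and 250 ± 124 CPM (SD, n = 6 each), with a log2 fold change of -0.022 (SE 0.37, 95% interval -0.83 to 0.79, edgeR adjusted p = 0.982). The sign of *Egr1* turned under upper quartile scaling, to 0.012, and when single mice were left out.

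*Egr2* (ENSMUSG00000037868, plus strand, chr10:67535475-67542188) had the most negative difference of the members. Its levels were 5.08, 10.7 and 13.4 CPM in WT mice and 2.46, 6.79 and 11.1 CPM in *Tet2*-KO mice, and the 32 to 229 counts behind them make it one of the less deeply measured members. *Tet2*-KO 4, 5 and 6 had 3.39, 4.79 and 2.46 CPM, WT 6 had 5.08 CPM, and the other 8 mice had at least 8.80 CPM. The log2 fold change was -0.59 (SE 0.37, 95% interval -1.40 to 0.22, edgeR adjusted p = 0.361). An exact two-sided permutation test over the 12 mice gave p = 0.0866 for *Egr2*, the lowest of the 10 members in that test, where the smallest p possible is 0.00216.

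*Npas4* and *Nr4a1* encode transcription factors of other families. NPAS4 is a bHLH-PAS factor induced in neurons chiefly by calcium entry, and NR4A1 (NUR77) is an orphan nuclear receptor that is also induced in macrophages and T cells. *Npas4* (ENSMUSG00000045903, minus strand, chr19:4984355-4990316) had 11.1, 20.6 and 27.1 CPM in WT mice and 9.46, 13.5 and 37.5 CPM in *Tet2*-KO mice. *Tet2*-KO 1, at 37.5 CPM, stood above every other mouse, and the next *Tet2*-KO mouse had 15.2 CPM. The log2 fold change was -0.27 (SE 0.36, 95% interval -1.06 to 0.53, edgeR adjusted p = 0.705), and it was -0.69 without *Tet2*-KO 1 (unadjusted p = 0.0109, adjusted p = 0.211 in the same edgeR test).

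*Nr4a1* (ENSMUSG00000023034, plus strand, chr15:101254269-101274795) repeated the split of *Egr1*. WT levels were 27.9, 74.0 and 107 CPM and *Tet2*-KO levels 27.5, 59.2 and 96.5 CPM. The same 5 mice had at most 35.9 CPM and the other 7 at least 67.9 CPM, a gap of 1.89-fold. The difference of -0.18 on the log2 scale (SE 0.44, 95% interval -1.15 to 0.79, edgeR adjusted p = 0.847) was -0.0055 without WT 5 and -0.37 without *Tet2*-KO 1.

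*Arc* (ENSMUSG00000022602, minus strand, chr15:74669083-74672570) encodes a synaptic protein that promotes the removal of AMPA receptors and is the classic effector of the group. It had 49.3, 134 and 166 CPM in WT mice and 44.9, 89.4 and 191 CPM in *Tet2*-KO mice. Between 53.4 and 110 CPM there was no mouse, a gap of 2.05-fold, with WT 2, WT 6 and *Tet2*-KO 4, 5 and 6 below. Means of 117 ± 54.9 and 107 ± 69.5 CPM (SD, n = 6 each) had a log2 fold change of -0.13 with the widest interval of the set, -1.23 to 0.98 (SE 0.50, edgeR adjusted p = 0.911). Its sign turned when WT 4 or *Tet2*-KO 4, 5 or 6 was left out.

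*Ier2* and *Dusp1* were the members with the least spread. IER2 is a small nuclear protein of the immediate early response, and *Ier2* (ENSMUSG00000053560, minus strand, chr8:84661331-84662852) had 50 to 141 counts per library. Its levels were 4.36, 6.59 and 10.2 CPM in WT mice and 3.85, 4.79 and 7.87 CPM in *Tet2*-KO mice, and the groups overlapped over most of their range. The log2 fold change of *Ier2* was -0.37 (SE 0.21, 95% interval -0.82 to 0.089, edgeR adjusted p = 0.316), the lowest p of the members. It was -0.50 without *Tet2*-KO 1 and -0.47 without WT 6, with unadjusted p of 0.0256 and 0.0356 in the same edgeR test, and no adjusted p under 0.05.

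*Dusp1* (ENSMUSG00000024190, minus strand, chr17:26505590-26562128) encodes a nuclear phosphatase that inactivates p38, JNK and ERK. WT levels were 18.6, 23.9 and 30.3 CPM and *Tet2*-KO levels 15.1, 19.1 and 30.9 CPM. Here the mice formed a continuous series with no wide gap, and the highest mouse had 2.05 times the lowest. The log2 fold change was -0.17 (SE 0.19, 95% interval -0.58 to 0.23, edgeR adjusted p = 0.620). The annotated span of *Dusp1* overlaps *Ergic1* on the opposite strand, so its counts carry the same uncertainty as those of *Junb*.

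**Figure D2:**
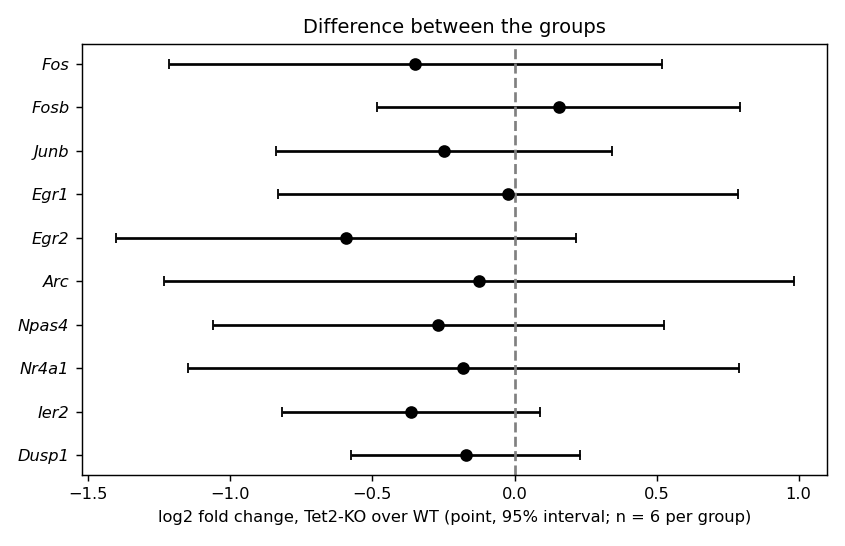
Log2 fold change of each gene, *Tet2*-KO over WT, as a point with its 95% interval from the edgeR fit (n = 6 per group, dashed line at 0). All 10 intervals cross 0, and they are widest for *Arc*, from -1.23 to 0.98, and narrowest for *Dusp1*, from -0.58 to 0.23.

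Absence of a call does not show that the groups were alike. The intervals leave room for a mean of *Egr2* down to 0.378 times the WT mean and for a mean of *Arc* up to 1.98 times it. For *Dusp1* and *Ier2*, the better constrained genes, the bounds were 0.671 to 1.17 times and 0.567 to 1.06 times.

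Compared per kilobase of annotated exon, the members spanned a wide range of levels. The mean over the 12 mice was 56.2 CPM per kb for *Egr1*, 36.6 for *Arc*, 19.4 for *Junb*, 18.2 for *Nr4a1*, 11.8 for *Fos*, 6.82 for *Dusp1*, 4.41 for *Npas4*, 4.05 for *Ier2*, 2.53 for *Egr2* and 1.98 for *Fosb*. *Egr1* was above *Arc* in 12 of 12 mice and *Dusp1* above *Npas4* in 12 of 12. Every other pair of neighbours traded places in at least 1 mouse. *Npas4* was above *Ier2* in 6 of 12 mice, *Junb* above *Nr4a1* in 8, *Egr2* above *Fosb* in 9, *Fos* above *Dusp1* in 10, and *Arc* above *Junb*, *Nr4a1* above *Fos* and *Ier2* above *Egr2* in 11 each. *Egr1* stood at the 97.6 percentile of all tested genes on this scale, and *Fosb* at the 31.1 percentile.

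The spread between mice of the same group was large for these genes. The biological coefficient of variation, the relative SD between mice that edgeR estimates beyond counting noise, had a median of 0.427 for the members and 0.110 for all tested genes. It placed 8 of 10 members in the 5% of genes with the highest dispersion, from *Arc* at the 99.4 percentile and *Nr4a1* at the 99.1 to *Junb* at the 95.8. *Ier2* and *Dusp1*, at the 91.7 and 89.6 percentiles, were the other two. On the log2 CPM scale the within-group SD had a median of 0.639 for the members and 0.187 for all genes, and 2.66% of all genes were at or above the members' median. Both groups had this spread, as the SD of *Arc* was 0.817 in WT mice and 1.02 in *Tet2*-KO mice. The count of 8 depends on which genes it is ranked against: it was 2 when genes with low counts were kept, and 0 with the dispersions of DESeq2 on all deposited counts.

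**Figure D3:**
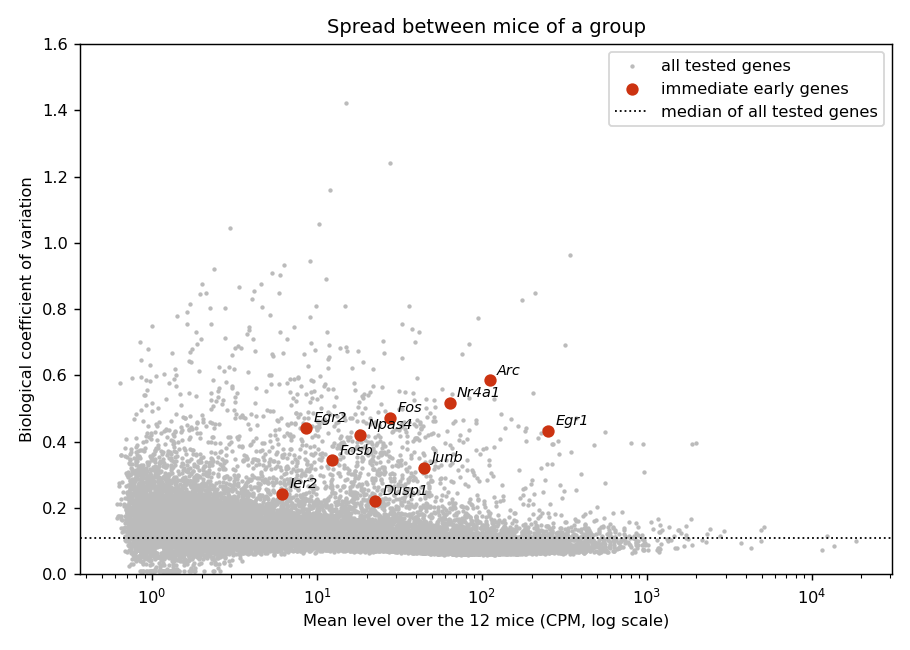
Biological coefficient of variation from edgeR against the mean level over 12 mice (CPM, log scale) for all 20290 tested genes in grey and the 10 immediate early genes in red, with a dotted line at the median of all genes, 0.110. Every member lies above the line, from 0.222 for *Dusp1* to 0.585 for *Arc*.

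The members varied together. In deviations from the group mean in log2 CPM, WT 6 averaged -0.80 over the 10 genes, *Tet2*-KO 6 -0.70, *Tet2*-KO 4 -0.55, *Tet2*-KO 5 -0.53 and WT 2 -0.36. The other 7 mice averaged above 0, up to 0.76 in *Tet2*-KO 1. WT 6 and *Tet2*-KO 4, 5 and 6 were among the 5 lowest of the 12 mice in 10 of 10 genes. *Tet2*-KO 1 was the highest mouse of its group in 7 genes and WT 5 the highest of its group in 6. Summed over the members, the level ran from 297 CPM in *Tet2*-KO 6 to 873 CPM in *Tet2*-KO 1.

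**Figure D4:**
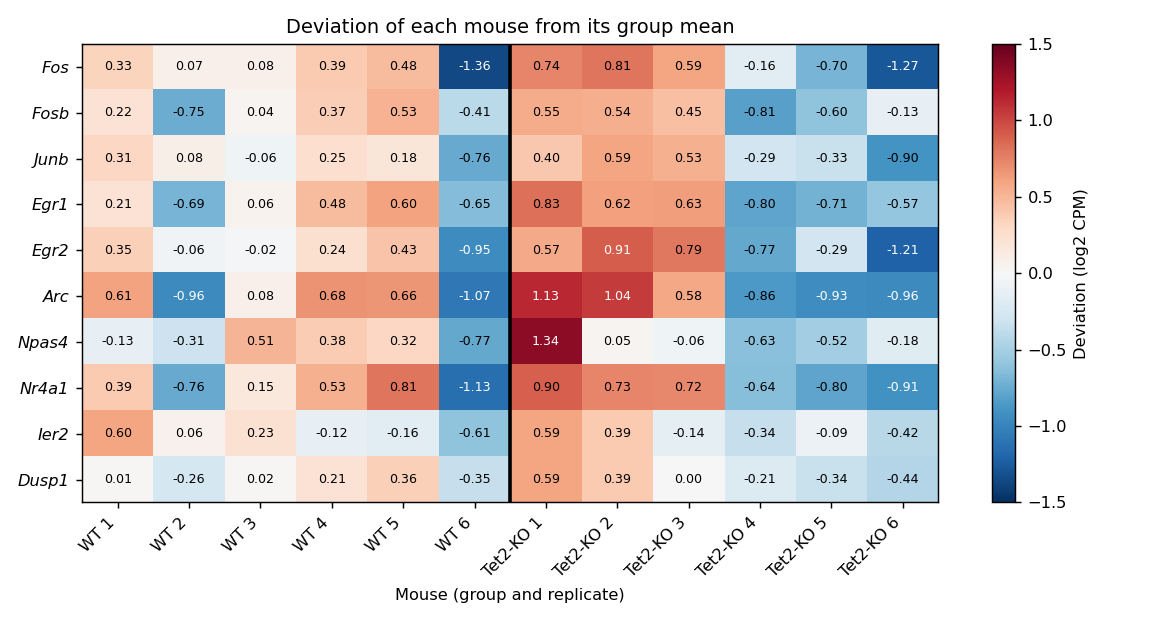
Deviation of each mouse (columns) from its group mean for each gene (rows), in log2 CPM, with blue below and red above the mean and the value printed in each cell. The columns of WT 6 and *Tet2*-KO 4, 5 and 6 are blue in all 10 genes, whereas WT 2 is blue for *Fosb*, *Egr1*, *Arc* and *Nr4a1* and near 0 for *Fos*, *Junb* and *Egr2*.

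Over the 12 mice, the 45 pairs of members had Pearson r of 0.481 to 0.983 in these deviations (median 0.812) and Spearman rho of 0.399 to 0.972 (median 0.832). All 45 were positive, also within the WT mice alone (0.211 to 0.984) and within the *Tet2*-KO mice alone (0.495 to 0.987). These r are descriptions over mice that share a library for both genes, and for the genes with a gap they include the split into low and high mice. As a background, each member's median r with all tested genes was between -0.033 and -0.001, and 0.133% (*Nr4a1*) to 6.10% (*Fosb*) of the tested genes reached the member's median r with the other members.

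Within the set, closer groupings were seen. *Fos*, *Junb* and *Egr2* had r of 0.927 to 0.973 with each other, *Fosb*, *Egr1*, *Arc* and *Nr4a1* had r of 0.905 to 0.983, and pairs across the groupings had 0.653 to 0.898. The groupings were chosen after these values were seen. They part most plainly in WT 2, where *Egr1*, *Arc*, *Nr4a1* and *Fosb* deviated by -0.69, -0.96, -0.76 and -0.75 while *Fos*, *Junb* and *Egr2* deviated by 0.07, 0.08 and -0.06 on the log2 scale. In *Tet2*-KO 6 they did not part in this way, as *Fos*, *Junb* and *Egr2* deviated by -1.27, -0.90 and -1.21 and *Arc*, *Nr4a1*, *Egr1* and *Fosb* by -0.96, -0.91, -0.57 and -0.13. *Npas4* and *Ier2* followed the rest least, with a median r of 0.725 and 0.646.

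**Figure D5:**
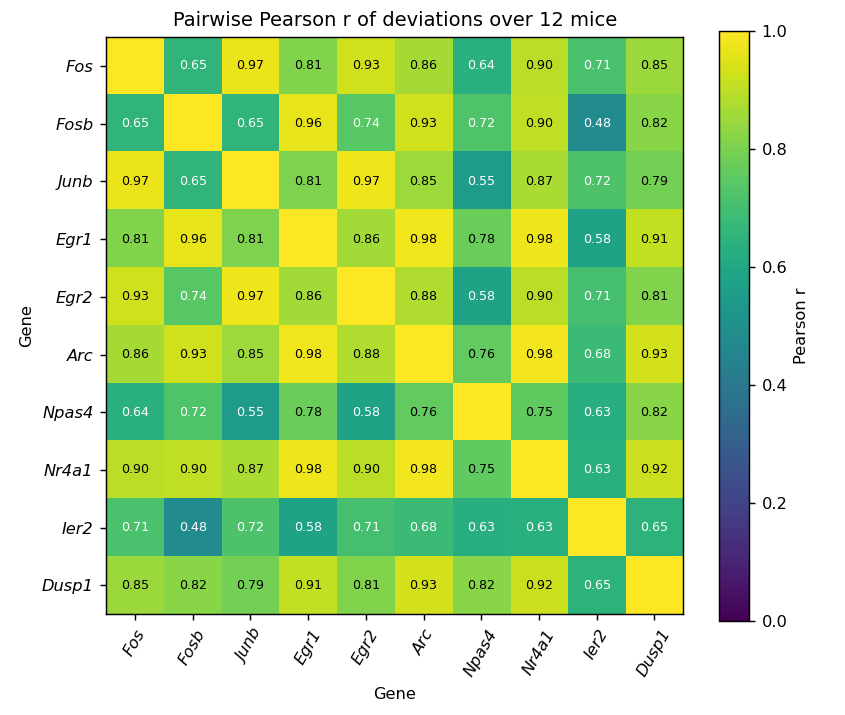
Pearson r between each pair of genes in deviations from the group mean (log2 CPM) over 12 mice, on a colour scale from 0 to 1. The highest value is 0.98, between *Arc* and *Nr4a1*, and the lowest 0.48, between *Fosb* and *Ier2*.

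The genes outside the set whose deviations were most like the mean scaled deviation of the members were *Vegfa* (Pearson r 0.952, Spearman rho 0.930), *Dusp6* (0.937, 0.853), *Gm43800* (0.933, 0.832), *1700016P03Rik* (0.932, 0.853) and *Mafg* (0.930, 0.888), over 12 mice and among 19091 candidates. *Vegfa* encodes the main angiogenic growth factor, *Dusp6* a phosphatase of ERK and *Mafg* a small MAF transcription factor. An r of at least 0.9 was reached by 20 candidates. None of the 5 genes passed the test between the groups, with *Vegfa* at 52.5 ± 5.20 CPM in WT mice and 50.8 ± 8.71 CPM in *Tet2*-KO mice (SD, n = 6, edgeR adjusted p = 0.827).

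Other genes of the pathway were taken from 4 lists. Of the 22 other inducible transcription factors, 8 were lower and 0 higher in *Tet2*-KO mice at an unadjusted p under 0.05, against 12.2% lower and 10.8% higher among all tested genes, and none passed the adjusted p. The median log2 fold change of the list was -0.13. The smallest p belonged to *Nfil3*, a bZIP repressor, at -0.60 (SE 0.13, edgeR adjusted p = 0.110), and *Ier3*, a stress-induced survival gene, at -0.49 (SE 0.14, edgeR adjusted p = 0.121). On the positive side were *Per1*, a clock gene inducible through CREB, at 0.40 (SE 0.18, edgeR adjusted p = 0.221) and *Fosl1*, an AP-1 subunit, at 0.19 (SE 0.13, edgeR adjusted p = 0.408). These inducible factors did not all follow the members from mouse to mouse. Their deviations had a median r of 0.48 with the members' mean, and 6 of 22 reached 0.7 (*Fosl2*, *Egr4*, *Ier5*, *Klf10*, *Btg2* and *Nr4a3*), where 3.15% of the other tested genes did.

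Of the 25 activity-regulated effector genes, 5 were higher and 5 lower at an unadjusted p under 0.05, against 10.8% and 12.2% of all tested genes. The median log2 fold change of the list was 0.064, and none of its genes passed the adjusted p. *Gadd45b*, which links stimulation to DNA demethylation and stress responses, was at -0.70 (SE 0.13, edgeR adjusted p = 0.0955), and the kinase gene *Pim1* at -0.87 (SE 0.20, edgeR adjusted p = 0.110). *Dclk1*, a microtubule-associated kinase of neurons, was at 0.26 (SE 0.084, edgeR adjusted p = 0.125), and *Sorcs3*, a sorting receptor at the synapse, at 0.28 (SE 0.091, edgeR adjusted p = 0.126).

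Among the other MAP kinase phosphatases, 10 of 11 were tested (*Dusp9* had too few counts), with a median of -0.044. At an unadjusted p under 0.05, 1 was higher and 0 lower, against 10.8% and 12.2% of all tested genes. Values were 0.20 for *Dusp8* (SE 0.065, edgeR adjusted p = 0.128), 0.24 for *Dusp14* (adjusted p = 0.306), -0.18 for *Dusp16* (adjusted p = 0.259) and -0.13 for *Dusp6* (adjusted p = 0.556). The 27 upstream kinases and transcription factors had a median of 0.042, and none passed the adjusted p. At an unadjusted p under 0.05, 10 of them were higher and 2 lower, against the same 10.8% and 12.2%. *Camk4*, a nuclear kinase that phosphorylates CREB, was at 0.39 (SE 0.11, edgeR adjusted p = 0.121) and *Mef2c*, an activity-dependent factor of neurons, at 0.26 (SE 0.081, edgeR adjusted p = 0.124). The SRF partners *Elk3* and *Elk4* were at -0.40 and -0.11 (SE 0.15 and 0.046, edgeR adjusted p = 0.159 and 0.175). Dispersion was ordinary in these upstream genes, with a median coefficient of variation of 0.095 and 0 of 27 in the top 5%. High dispersion was not particular to the members, however. Activated phagocyte markers had a median of 0.755 with 7 of 7 in the top 5%, and fibroblast and pericyte markers 0.474 with 4 of 6. Neuron markers had 0.107 with 0 of 12, and oligodendrocyte markers 0.120 with 0 of 6.

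Features of the libraries were set beside the members' levels, and their part in the spread was not tested. In all, 19 measures were compared, and those given here were chosen after their values were seen. All r are descriptions over 12 mice, in deviations from the group mean, and each mouse contributes 1 library to both measures. The mean deviation of the members had a Pearson r of 0.48 (Spearman rho 0.40) with the summed neuron markers, 0.34 within the WT mice and 0.60 within the *Tet2*-KO mice. It was 0.35 without WT 2 and *Tet2*-KO 4, the 2 mice farthest from the median of the marker sum. For the 7 activated phagocyte markers, all tested and none at 0, r was -0.50 (rho -0.20), with -0.013 within the WT mice and -0.65 within the *Tet2*-KO mice. Without *Tet2*-KO 1 and *Tet2*-KO 5, the farthest on that sum, r was -0.16. Without WT 6 and *Tet2*-KO 6, the farthest in the members' mean scaled deviation, r was -0.86 for these markers and 0.88 for the neuron markers. Both relations therefore depended on which mice were left out.

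The phagocyte sum was 1063 to 2770 CPM in WT mice, highest in WT 2, and 64.9 to 1563 CPM in *Tet2*-KO mice, highest in *Tet2*-KO 5, followed by *Tet2*-KO 4 at 596 CPM. In *Tet2*-KO mice, 11 of 12 neuron markers were higher and 6 of 7 phagocyte markers lower at an unadjusted edgeR p under 0.05. Among all tested genes, 10.8% were higher and 12.2% lower at that cut, and no marker of either list passed the adjusted p. The median log2 fold changes of the lists were 0.21 and -1.68. WT 6, the mouse with the lowest mean deviation, had 6462 CPM of neuron markers, within the WT range, and the lowest phagocyte sum of the WT mice, 1063 CPM. *Tet2*-KO 6 had 7880 CPM of neuron markers, above 4 of the other 5 *Tet2*-KO mice, 192 CPM of phagocyte markers and the highest mitochondrial share, with the lowest summed level of immediate early genes of all 12 mice.

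Red blood cell markers had an r of 0.71 with the members (0.47 within WT, 0.90 within *Tet2*-KO, 0.65 without the 2 mice farthest on that sum). Choroid plexus markers had -0.64 (-0.74, -0.59 and -0.53 in the same order). Library size had an r of 0.41, and 0.14 without the 2 mice farthest in library size. The 5 mice with low members had libraries of 12462835 to 19398440 counts, within the range over all 12.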

How the data were processed

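Bulk RNA-sequencing covered brains of 12 mice at 14 d post-stroke, 6 per group, grouped by the sample titles. The study calls the tissue whole brains and, elsewhere, whole hemispheres. The authors depleted ribosomal RNA, trimmed paired reads with Trimmomatic 0.36, aligned them to mm10 with STAR 2.5.2b and counted uniquely mapped exonic reads with featureCounts (Subread 1.5.2), and the values they deposited are raw counts for 49315 genes. Such counts carry no correction for gene length, and the strand setting was not given in the sources used here.

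Symbols and coordinates were taken from GENCODE M21 and promoters from RefSeq GRCm38.p6. Genes were filtered with filterByExpr, scaled with TMM and tested with the robust quasi-likelihood test of edgeR 4.0.16 in R 4.3.3, with Benjamini-Hochberg adjustment over 20290 genes and a threshold of 0.05. Intervals are at 95%. Log2 CPM used a prior count of 2. Single genes were also tested with exact two-sided permutation tests on log2(CPM + 0.1). DESeq2 1.42.0 and limma 3.58.1 served as alternatives, together with other scalings, filters, a replicate block and leaving out mice. Scripts were tested on simulated data.

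Members and gene lists were chosen with earlier results of these data known. The text names the 10 members, *Tet2*, the 2 smallest p in each direction of each pathway list, and the 5 genes with mean CPM of at least 1 most like the members. Others named were chosen after their values were seen. P-values set the difference between the groups against the spread between these mice. No column of another sample was found.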

Additional observations from a re-analysis of the deposited data

Results flagged for a closer look

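Dixon's test for a single outlying sample, run on each of the 10 genes in each group of 6 mice (20 tests, of which chance flags about 1 in 20), marked 2 values. *Fos* in WT 6 was at 11.3 CPM, with the next WT mouse at 30.6 CPM, a gap of 0.659 of the group's range. *Npas4* in *Tet2*-KO 1 was at 37.5 CPM, with the next *Tet2*-KO mouse at 15.2 CPM, a gap of 0.797 of the range. The other 9 genes in WT 6 and in *Tet2*-KO 1 were not marked, although WT 6 was the lowest WT mouse in 8 genes and *Tet2*-KO 1 the highest *Tet2*-KO mouse in 7.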

How the results depend on the processing

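No member passed an adjusted p of 0.05 under any of the alternatives run. At an unadjusted p under 0.05 the count was 0 of 10. It was 2 with the replicate number as a block, where edgeR gave *Ier2* the lowest unadjusted p, 0.00919 (adjusted p = 0.168), and *Egr2* 0.0445. It was 0 to 2 when single mice were left out, with 2 without *Tet2*-KO 1 and 1 without WT 6. The sample titles number the mice within each group and name no pairs. Over all tested genes, same-numbered mice had r of -0.17 to 0.23 in their deviations, which cannot decide whether they were paired. The block was therefore kept only as an alternative. The median log2 fold change of the members, -0.21, was -0.37 without *Tet2*-KO 1 and -0.10 without *Tet2*-KO 6, the extremes of leaving out mice. *Egr1*, at -0.022, was 0.012 with upper quartile scaling, which moved the median of all genes from 0.010 to 0.043, and -0.20 to 0.11 when single mice were left out, with 6 changes of sign. *Arc*, at -0.13, was -0.37 to 0.031, with 4 changes of sign. The other members kept their sign, with ranges of -0.52 to -0.18 for *Fos*, 0.035 to 0.29 for *Fosb*, -0.37 to -0.11 for *Junb*, -0.80 to -0.43 for *Egr2*, -0.69 to -0.15 for *Npas4*, -0.37 to -0.0055 for *Nr4a1*, -0.50 to -0.22 for *Ier2* and -0.31 to -0.092 for *Dusp1*. The members' count in the top 5% of dispersion, 8, was 2 with no filter, 0 with DESeq2, 7 to 8 leaving out single mice and 9 without both WT 2 and *Tet2*-KO 5. The median pairwise r, 0.812, was 0.798 to 0.843 leaving out single mice and 0.856 without both of those mice. These 2 results were recomputed after seeing the data.

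The number of genes past an adjusted p of 0.05, 5 in the edgeR test, was 44 with no filter, 0 with at least 10 counts in every library, 0 with the block, 898 with the DESeq2 Wald test, 2013 with limma-voom and 1554 without WT 2 and *Tet2*-KO 5. Leaving out single mice gave 0 to 2257, the highest without *Tet2*-KO 5, 13 without WT 6, 2 without WT 5, 4 without WT 2 and 0 without any other. The cause was not tested. *Egr2*, at 32 to 229 counts per library, and *Ier2*, at 50 to 141, rest on the fewest reads.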
